A study of Mus musculus with 6 samples.

Results

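The GDNF family is a set of 4 secreted ligands and the receptors that bind them, and it was followed here through 10 genes: the ligands Gdnf, Nrtn, Artn and Pspn, the co-receptors Gfra1, Gfra2, Gfra3 and Gfra4, and the signalling receptors Ret and Ncam1. Members were chosen by gene symbol in the platform annotation, out of 19321 genes with a named probe on the array. Each of the 10 genes had 1 probe, and all 10 probes are reported, also those close to the blank spots. The family was taken up because the Gdnf probe was already known to be lower in Cre cultures, so the comparison of Cre with control cultures is given for the members as a description. Standard errors and intervals of the fit over all probes show its precision, and counts of small p-values are printed only beside the same share of all probes; neither is used as a test of the members.

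Expression was measured in cortical astrocytes of newborn (P0) C57BL/6J mice whose Chd7 alleles were both floxed, so that the recombinase Cre can cut out the stretch between the loxP sites. The product of Chd7 is a chromatin remodelling enzyme. Control cultures (3 arrays) were infected with a control lentivirus and Cre cultures (3 arrays) with a Cre lentivirus, and RNA was collected after 3 days. Every culture, control or Cre, was Chd7flox/flox and grew in 10% FBS with FGF2, EGF and B-27 supplement. Cre was added only to cells with floxed Chd7, so the presence of the recombinase and the loss of Chd7 cannot be told apart. The promoter of the Cre virus, the share of cells infected and whether cells of several pups were pooled are not given in the sources used here.

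GDNF family ligands are small dimeric growth factors that keep neurons alive and guide the growth of kidney and enteric nerves. Each ligand binds a preferred co-receptor of the GFRα group, which is held on the membrane by a lipid anchor and recruits the tyrosine kinase RET; GDNF pairs with GFRα1, neurturin with GFRα2, artemin with GFRα3 and persephin with GFRα4. NCAM, the product of Ncam1, is a cell adhesion molecule that can carry GDNF signals together with GFRα1 where RET is missing. Astrocytes are a known source of GDNF for neighbouring neurons.

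Upstream sequence is shown for Gdnf, the member on which the results turn, at both of its transcription starts in the RefSeq promoter table (GRCm38.p6, plus strand). The starts lie 3679 bases apart. Each sequence holds the 250 bases before the start, 5′ to 3′, at chr15:7809798-7810047 for the upstream start and chr15:7813477-7813726 for the downstream start. Capitals mark matches, on either strand, to the cAMP response element TGACGTCA, its shorter form TGACG, which is also part of it, the TATA box TATAAA or the GC box GGGCGG.
Gdnf upstream start: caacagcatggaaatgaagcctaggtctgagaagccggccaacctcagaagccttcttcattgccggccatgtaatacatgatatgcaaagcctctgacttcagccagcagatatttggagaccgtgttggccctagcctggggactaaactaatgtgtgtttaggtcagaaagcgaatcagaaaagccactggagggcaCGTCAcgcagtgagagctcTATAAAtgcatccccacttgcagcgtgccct
Gdnf downstream start: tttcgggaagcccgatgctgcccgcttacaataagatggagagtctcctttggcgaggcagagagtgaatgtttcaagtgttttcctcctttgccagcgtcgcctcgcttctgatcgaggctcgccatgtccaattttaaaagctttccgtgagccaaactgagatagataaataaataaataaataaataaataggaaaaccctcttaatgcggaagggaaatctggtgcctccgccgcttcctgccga

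The upstream start of Gdnf carried 1 TATA box match that begins 31 bases before the start, and 1 match to TGACG that begins 50 bases before it, on the minus strand. Of all 32851 windows of this length in the table, 12.4% held TATAAA, 17.8% TGACG, 1.55% the full TGACGTCA and 32.7% GGGCGG. The downstream start held none of these letters, and neither Gdnf window held GGGCGG. The downstream window had 14 CpG dinucleotides and the upstream window 7, against a median of 6 over all windows. Windows were sought for 9 members, with Gfra3 left out, and 6 had an entry. Gfra2, Ret and Ncam1 had none. Of the other members with an entry, windows of Nrtn (1 match) and Artn (2 matches) held GGGCGG. Those of Pspn, Gfra1 and Gfra4 held none of the searched letters. These matches describe letters only. The annotated transcript of the Gdnf probe is NM_001301357.1, and which start gives rise to the measured RNA was not determined.

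The arrays were 1-colour arrays with 23473 probes, of which 20542 exceeded background on 3 or more of the 6 arrays; this means a spot more than 2 SD over the mean of the blank spots. Between 82.9% and 87.0% of probes met this limit on the Cre arrays and between 87.4% and 90.8% on the control arrays. Levels are log2 intensities after correction against the blank spots and quantile normalisation, and they are compared only within a probe. The brighter Chd7 probe read 6.92, 7.49 and 6.95 on the control arrays and 6.00, 5.97 and 6.01 on the Cre arrays, so that all Cre arrays were lower, as the labels imply. The difference was -1.13 log2 units (SE 0.16), and it was below 0 under all 15 alternative settings tried. The dimmer Chd7 probe read -0.11 (SE 0.06). In the limma fit across all 20542 probes, 0% passed an adjusted p of 0.05 (smallest adjusted p = 0.406), and 5.62% had an unadjusted p under 0.05, 586 probes lower and 568 higher in Cre cultures. With the authors' processed values that split was 1753 lower and 122 higher, with median scaling 378 and 235, and with the local background column 510 and 776.

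Gdnf, the founding ligand of the family, was the member that separated the cultures most. Its log2 level was 11.31, 11.57 and 11.25 on control replicates 1, 2 and 3 and 10.36, 10.40 and 10.23 on Cre replicates 1, 2 and 3. Every Cre array lay below every control array, by a gap that exceeded the range within either group (0.32 among control and 0.17 among Cre arrays). The means were 11.38 ± 0.17 and 10.33 ± 0.09 (SD over 3 arrays each, which may not be separate cultures). This is a difference of -1.05 (SE 0.10, 95% interval -1.29 to -0.80), so that control cultures had 2.07-fold the level of Cre cultures. Same-numbered arrays differed by -0.95, -1.17 and -1.02. A difference of at least 2-fold in either direction was measured for 0.0243% of probes (5 in number), and Gdnf had the fourth lowest difference of the 20542. That rank depended on the setting: it was 21 in the authors' values, 77 with the blank mean subtracted and 1149 with the local background column, and it was 14 without control replicate 2, 11 without Cre replicate 1 and 7 without Cre replicate 3.

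**Figure D1:**
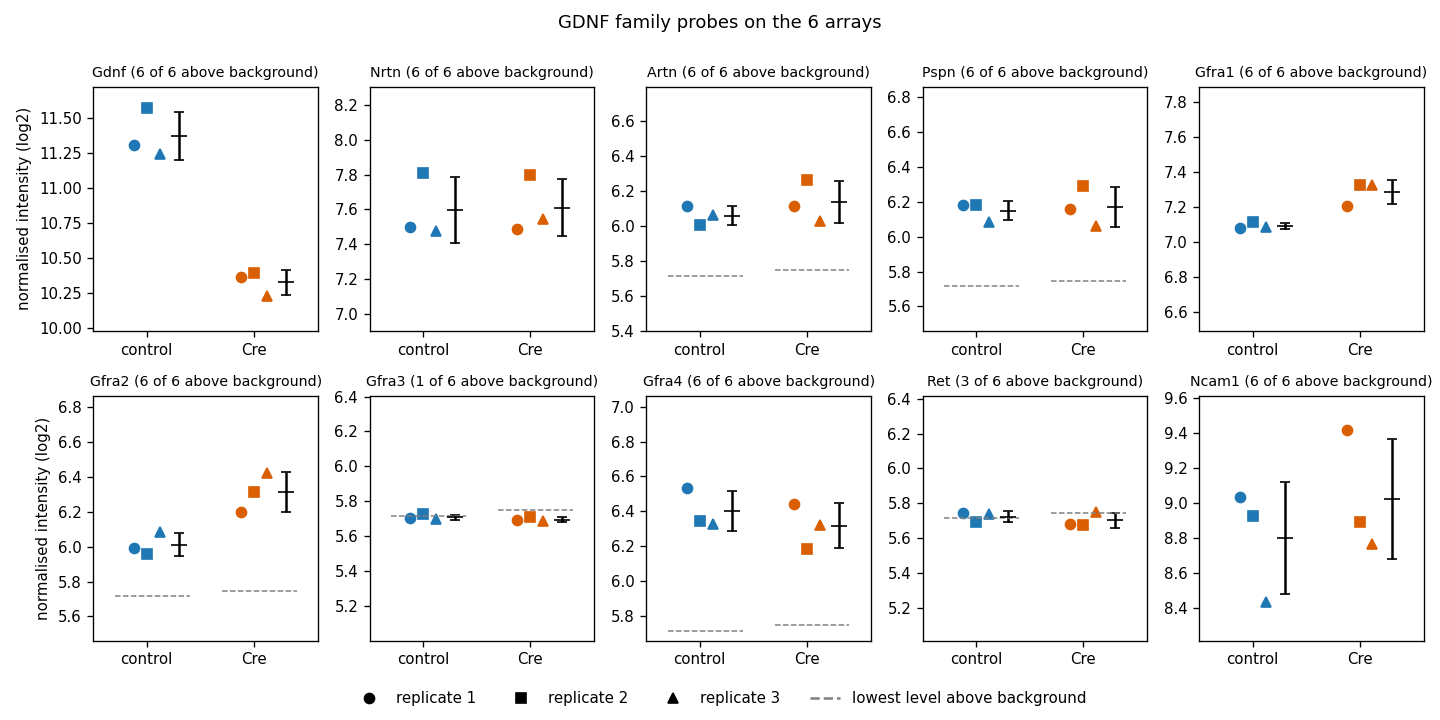
Normalised log2 intensity (y axis, a range of its own in each panel) of the 10 GDNF family probes on the control (blue) and Cre (orange) arrays; marker shapes give the replicate number, black bars the mean ± SD of 3 arrays, and dashed lines the highest, over a group's arrays, of the lowest level above background. Gdnf lies at 11.38 in control and 10.33 in Cre cultures without overlap, Gfra1 and Gfra2 lie higher on every Cre array in this setting (Gfra1 turns to -0.06 with the local background column), and Gfra3 and Ret sit at the dashed lines.

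In the authors' processed values, a linear intensity scale with the blank level taken off, Gdnf read 1429, 1959 and 1601 in control and 728, 666 and 666 in Cre cultures. The Cre arrays kept 50.9%, 34.0% and 41.6% of the value of their same-numbered control arrays. The group means were 1663 ± 270.4 and 687 ± 35.8 (SD over 3 arrays), and the Cre mean was 41.3% of the control mean. The probe was bright: its spots lay 747 to 3444 SD of the blank spots above the mean of the blanks, and 96.2% of probes had a lower mean level. Its difference was -1.07 at a smaller offset of 16 and -1.08 with the blank mean subtracted outright. A smaller difference came from the scanner's local background column, at -0.63 (SE 0.07). For this spot the local background reached 85.8% of the spot's own value on Cre replicate 2, against 8.09 to 32.5% on the other arrays, and with that array left out the column gave -0.64. Gdnf was lower in Cre cultures under all 15 alternative settings.

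Nrtn, the gene of neurturin, read 7.50, 7.81 and 7.47 in control and 7.49, 7.79 and 7.55 in Cre cultures, and the groups overlapped fully. Replicate 2 was the high array in both groups. The difference was 0.015 (SE 0.12, 95% interval -0.29 to 0.32). In the authors' values it read 77, 120 and 78 in control against 77, 87 and 80 in Cre cultures. The 95% interval describes the precision of the unpaired fit in the main setting, and it was not used to compare Nrtn with Gdnf. With the local background column the Nrtn difference was 0.35 (SE 0.38).

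Artn, which encodes artemin, was a dim probe, at 6.11, 6.01 and 6.06 in control and 6.12, 6.27 and 6.03 in Cre cultures. Its groups overlapped, with Cre replicate 2 the highest array, and the difference was 0.077 (SE 0.071, 95% interval -0.10 to 0.25). Pspn, the gene of persephin, read 6.18, 6.18 and 6.09 in control and 6.16, 6.29 and 6.06 in Cre cultures. The difference was 0.020 (SE 0.068, 95% interval -0.15 to 0.19), again with overlap. Both probes were above background on all 6 arrays, at 9 to 14 (Artn) and 10 to 15 (Pspn) units in the authors' values. The offset of 50 units compresses the differences of dim probes by construction. For Artn the difference was 0.26 with the blank mean subtracted, and it turned to -0.19 with the local background column without Cre replicate 2. For Pspn it was 0.21 with the local background column and -0.11 with that array left out as well.

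Among the co-receptors, Gfra1 and Gfra2 were higher on every Cre array than on any control array. Gfra1, whose product is the main binding partner of GDNF, read 7.08, 7.11 and 7.08 in control and 7.21, 7.33 and 7.33 in Cre cultures. The control arrays lay within 0.036 log2 units of each other. The difference was 0.20 (SE 0.05, 95% interval 0.080 to 0.31), or 1.14-fold, with 0.13, 0.22 and 0.24 in the same-numbered pairs. On the linear scale of the authors the groups overlapped, at 50, 59 and 53 in control and 58, 56 and 65 in Cre cultures, and the pair of replicate 2 went the other way (94.9% of control). There the difference was 0.14 (SE 0.11). With the blank mean subtracted it was 0.30 (SE 0.13), and with median scaling 0.17 (SE 0.08). The authors' scale carries a median difference of -0.16 over all probes, relative to which Gfra1 stood at 0.30. With the local background column Gfra1 turned to -0.06 (SE 0.23), and its local background on Cre replicate 2 was 97.7% of the spot's value; without that array the column gave 0.22.

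Gfra2, the co-receptor gene that pairs with neurturin, read 5.99, 5.96 and 6.08 in control and 6.20, 6.32 and 6.43 in Cre cultures. The groups did not overlap, and the difference was 0.30 (SE 0.07, 95% interval 0.13 to 0.48). It was higher in all 3 same-numbered pairs, by 0.21, 0.36 and 0.34. In the authors' values it read 9, 8 and 11 in control and 14, 16 and 21 in Cre cultures, which is 182% of the control mean. The probe is dim, and the size of its difference changed with the background setting. The difference was 0.57 at the offset of 16, 1.02 (SE 0.22) with the blank mean subtracted and 0.79 in the authors' values. It stayed above 0 in all 15 alternatives, but with the local background column it was only 0.33 with an SE of 0.24, and 0.075 (SE 0.045) when Cre replicate 2 was left out as well.

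**Figure D2:**
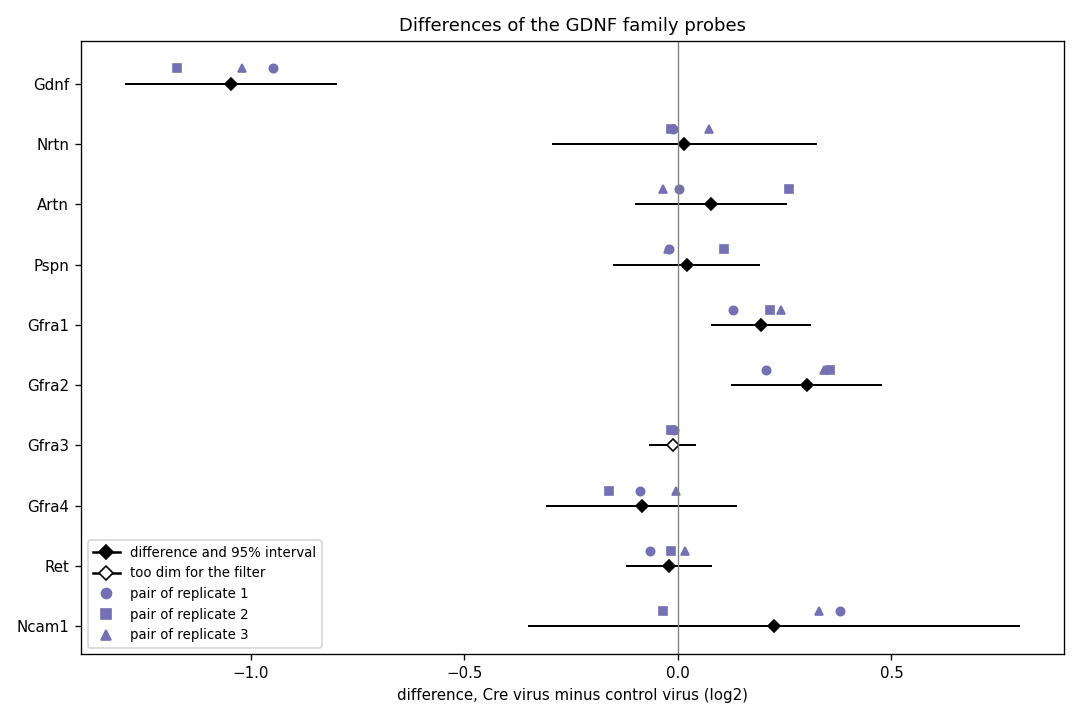
Log2 difference, Cre minus control, of each GDNF family probe (x axis); diamonds and lines give the fitted difference and its 95% interval, purple markers the 3 same-numbered pairs, and the open diamond a probe too dim for the filter. Gdnf lies at -1.05, Gfra1 at 0.20 and Gfra2 at 0.30, with Gfra1 turning to -0.06 and Gfra2 at 0.33 (SE 0.24) with the local background column.

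Gfra4, the persephin co-receptor gene, read 6.53, 6.35 and 6.33 in control and 6.44, 6.18 and 6.32 in Cre cultures. Each Cre array lay below its same-numbered control array, by 0.089, 0.16 and 0.0057 log2 units, but the groups overlapped and the difference was -0.085 (SE 0.089, 95% interval -0.31 to 0.14). With the local background column it turned to 0.23. Gfra3, the artemin co-receptor gene, was above background on 1 control array and on no Cre array, at 5.70, 5.72 and 5.70 in control and 5.69, 5.71 and 5.68 in Cre cultures. The authors' table holds a value for it on 2 control arrays (1 and 2 units) and is empty on the other 4. Gfra3 is the member that missed the filter, and no fold is given for it.

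Ret, the kinase through which the co-receptors signal, lay at the edge of detection. Its probe read 5.74, 5.69 and 5.74 in control and 5.68, 5.67 and 5.75 in Cre cultures, and it was above background on 2 of 3 control and 1 of 3 Cre arrays. In the authors' values it read 2, 1 and 2 in control, and of the Cre arrays replicate 3 read 2 and the others were empty. The difference of -0.022 (SE 0.039) therefore compares levels near the blank spots, and it changed sign between settings (-0.62 with the blank mean subtracted, 0.19 in the authors' values, where the fit used 4 of 6 arrays). Both Ret and Gfra3 were too near background for a difference to be measurable on these arrays.

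Ncam1, the alternative signalling receptor, was well measured but varied widely. It read 9.04, 8.93 and 8.43 in control and 9.42, 8.89 and 8.76 in Cre cultures. Replicate 1 was the high array and replicate 3 the low one in both groups, and the groups overlapped. The difference was 0.22 (SE 0.23, 95% interval -0.35 to 0.80), with 0.38, -0.035 and 0.33 in the same-numbered pairs. Single arrays moved it: it was 0.028 without Cre replicate 1, 0.043 without control replicate 3, 0.34 without control replicate 1 and 0.35 without Cre replicate 3. Fitted with a block for the replicate number, the value was the same and its SE was 0.10. With the local background column Ncam1 turned to -0.60 (SE 0.36), and it stood at -0.43 (SE 0.43) with Cre replicate 2 left out as well. That column was 83.8%, 98.9% and 88.4% of the spot's value on Cre replicates 1, 2 and 3. On control replicates 1, 2 and 3 it was 71.7%, 39.8% and 77.6%. In the authors' values it read 273, 301 and 186 in control and 371, 217 and 226 in Cre cultures.

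Of the 10 probes, 9 passed the filter on dim probes; 3 of these were lower and 6 higher in Cre cultures, with a median of 0.020 against -0.00065 over all probes. At an adjusted p of 0.05 in limma, 0 of the 9 passed, as did 0% of all probes. At an unadjusted p under 0.05 there were 3 (Gdnf, Gfra1 and Gfra2), against 5.62% of all probes; Gfra1 dropped out of this count with the blank mean subtracted, with median scaling and in the authors' values, and both Gfra1 and Gfra2 did with the local background column. The same 3 did not overlap between groups, against 10.5% of all probes. Since the family was chosen with this comparison known, nothing is read from these shares. The 8 filtered members other than Gdnf, Ret at the edge of detection included, lay between -0.085 and 0.30 at the offset of 50. In 2 other settings Gfra2 was nearly as far above 0 as Gdnf was below it. With the blank mean subtracted they stood at 1.02 (SE 0.22) and -1.08 (SE 0.15), and in the authors' values, relative to the median of all probes, at 0.95 and -1.11. The plot of differences against mean level places the family among all probes.

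**Figure D3:**
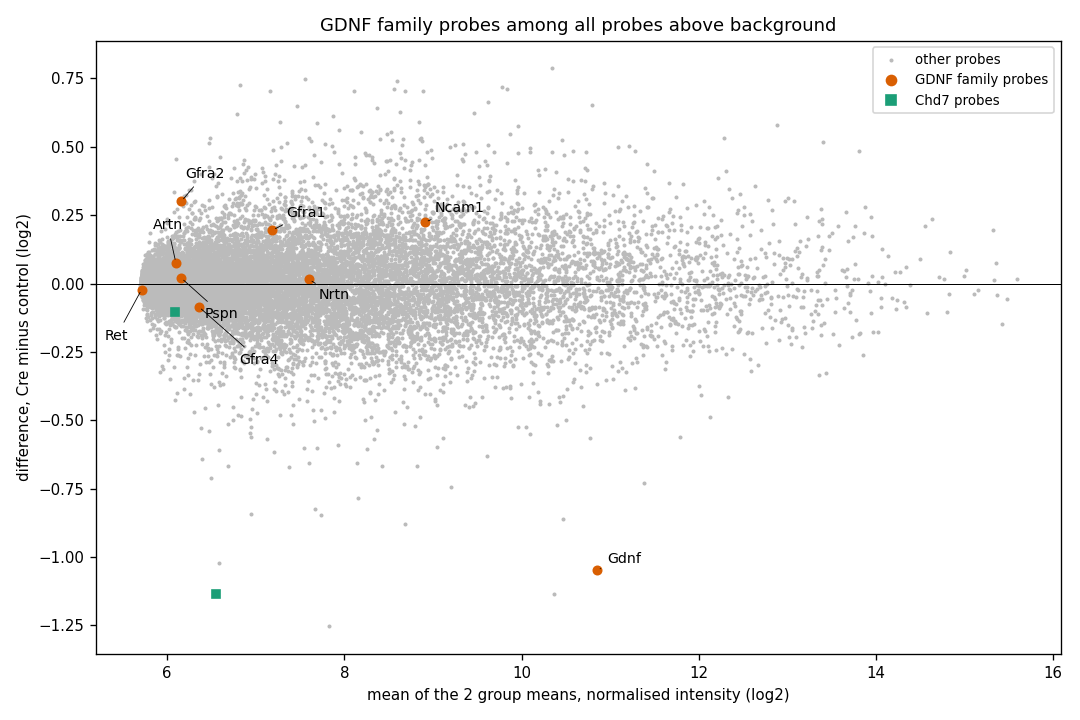
Log2 difference, Cre minus control (y axis), against the mean log2 level (x axis) for the 20542 probes above background; GDNF family probes that passed the filter are orange, Chd7 probes green and all others grey. Gdnf lies at -1.05 below the cloud of bright probes, and the other family probes lie between -0.085 and 0.30.

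The probes with the level pattern most like that of Gdnf over the 6 arrays were sought among 3541 named probes whose range was at least 0.5 log2 units. The 5 with the highest Pearson r were Cyb5r1 (0.991), Chd7 (0.984), Enkd1 (0.971), Ntpcr (0.966) and Serinc5 (0.962), and the 5 with the lowest were Tm7sf3 (-0.987), Ass1 (-0.971), Neurod1 (-0.961), Lratd1 (-0.955) and Prom1 (-0.954). All 10 differed between the groups without overlap, so r over these arrays mostly follows the difference between groups and is given as a description. Within groups, the deviations from the group mean correlated with those of Gdnf, with an r of 0.984 for Ntpcr, 0.963 for Enkd1, 0.835 for Chd7, 0.803 for Cyb5r1 and -0.088 for Serinc5. For the 5 opposite probes it lay between -0.904 (Tm7sf3) and -0.304 (Prom1). Control replicate 2, the array with the highest share of probes above background, was the highest of the 6 for Gdnf and Chd7. It was also the highest for Cyb5r1, Enkd1, Ntpcr and Serinc5. Within the family, r with Gdnf was -0.94 for Gfra2 and -0.89 for Gfra1.

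The machinery around the ligands was described through 5 gene lists, 1 probe a gene. None of their genes passed an adjusted p of 0.05 in limma; at an unadjusted p under 0.05 there were 6 in all, and 5.85% of all genes. Of the proteases that can cut the GDNF precursor, 3 of 4 were measured and none had an unadjusted p under 0.05: Furin stood at -0.0017 (SE 0.076), Pcsk7 at -0.010 (SE 0.089) and Pcsk6 at 0.22 (SE 0.17). Among accessory receptors and regulators (7 of 9 measured, median 0.034), 5 lay above 0 and 2 below. The tyrosine phosphatase receptor gene Ptprf read 7.54, 7.68 and 7.49 in control and 8.0, 7.78 and 7.68 in Cre cultures, a difference of 0.25 (SE 0.10). Gas1, a membrane protein related to the GFRα co-receptors, stood at 0.16 (SE 0.11), Lrig1, a membrane protein that restrains growth factor receptors, at -0.022 (SE 0.20) and Cblc, a ubiquitin ligase gene, at -0.0075 (SE 0.048).

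Adaptors and effectors that act below RET (27 of 33 measured) lay on both sides of 0, 15 higher and 12 lower, with a median of 0.0050 and none at an unadjusted p under 0.05. The genes whose unadjusted p was lowest, higher and lower ones apart, stood at 0.13 (SE 0.07) for the kinase subunit gene Pik3ca, 0.088 (SE 0.056) for the phospholipase gene Plcg1, -0.093 (SE 0.056) for the exchange factor gene Sos1 and -0.090 (SE 0.064) for the docking protein gene Dok4. Larger but less precise differences were measured for Shc1, an adaptor gene (0.25, SE 0.19), and the kinase gene Akt1 (0.23, SE 0.30), both named after their values were seen. Of genes that respond to GDNF and RET in kidney and germ cells (16 of 18 measured, median 0.020), 12 lay above 0 and 4 below. At an unadjusted p under 0.05 there were 2, both higher (12.5% of those measured), against 5.85% of all genes. Pou3f1, a POU domain transcription factor, read 6.19, 6.23 and 6.26 in control and 6.40, 6.43 and 6.44 in Cre cultures, a difference of 0.20 (SE 0.03) without overlap that did not pass (limma adjusted p = 0.495). The feedback inhibitor gene Spry2 stood at 0.29 (SE 0.11), its relative Spry1 at -0.33 (SE 0.23) and the ETS factor gene Etv1 at -0.12 (SE 0.12). For Spry1, control replicate 2 read 7.19 and the other 5 arrays lay between 6.28 and 6.41.

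Of genes known to govern Gdnf expression in other tissues or to act with it (27 of 31 measured), 10 lay above 0 and 17 below, with a median of -0.025. The growth factor gene Tgfb2, whose product acts together with GDNF on neurons, read 7.52, 7.52 and 7.64 in control and 7.66, 7.89 and 7.95 in Cre cultures, a difference of 0.28 (SE 0.09). The immediate early gene Fos stood at 0.26 (SE 0.09), the cytokine gene Il1b at -0.10 (SE 0.04) and the guidance ligand gene Slit2 at -0.17 (SE 0.08); none passed (limma adjusted p of 0.766, 0.831, 0.878 and 0.934 for Tgfb2, Fos, Il1b and Slit2).

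Markers of astrocytes and of other cells that such cultures hold are given beside the Gdnf result. All 11 astrocyte markers were above background, as the labelled cell type implies, and 10 were higher in Cre cultures (median 0.23), 4 of them at an unadjusted p under 0.05, against 5.85% of all genes. Among these, named after their values were seen, Aldh1l1 stood at 0.72 (SE 0.17) and the water channel gene Aqp4 at 0.31 (SE 0.06). Their summed value in the authors' table was 5068 to 8896 in control and 6721 to 8534 in Cre cultures. Of 12 microglia markers 11 were measured, 7 lower and 4 higher (median -0.11). At an unadjusted p under 0.05, 4 were lower and 1 was higher, against 5.85% of all genes. Of all markers, 0 passed the adjusted threshold. Microglia marker sums were 355 to 391 in control and 273 to 359 in Cre cultures; Itgam did not pass the filter. Fibroblast and mural markers (9 of 9 measured, 6 lower) summed to 12069 to 17305 in control and 9182 to 15561 in Cre cultures. Neuron markers (10 of 10 measured, 5 lower) summed to 470 to 641 and 410 to 519. At an unadjusted p under 0.05, 2 neuron markers were higher and 1 was lower, against 5.85% of all genes. Oligodendrocyte lineage markers (9 of 10 measured, 6 lower) summed to 1813 to 3342 and 1678 to 2507. Of 7 endothelial markers, Pecam1, Cldn5 and Tek did not pass the filter, and the sums were 61 to 179 and 54 to 120. The part of these markers in the Gdnf result was not tested. In RNA of whole cultures, fewer cells that express Gdnf and less Gdnf RNA per cell cannot be told apart.

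**Figure D4:**
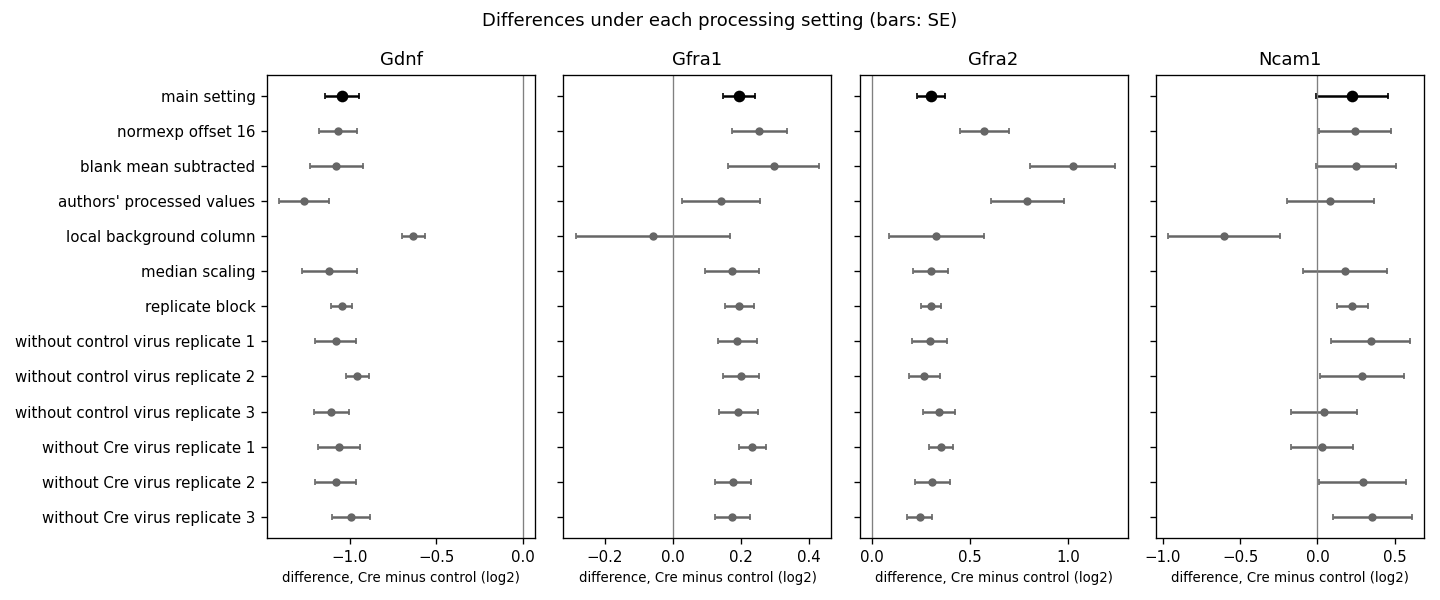
Log2 difference, Cre minus control (x axis, a range of its own in each panel), of Gdnf, Gfra1, Gfra2 and Ncam1 under the main setting (black), 6 alternatives and with each array left out (grey); bars give the SE. Gdnf stays between -1.26 and -0.63 and Gfra2 above 0, while Gfra1 and Ncam1 cross 0 with the local background column (-0.06 and -0.60).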

How the data were processed

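Per the labels' protocols, astrocyte RNA of 6 samples was labelled with Cy5 and hybridised to 1 array each. The scanner files, as deposited, hold a spot intensity and a local background intensity per spot, joined over 3 scanner gains per the file headers. The authors also deposited processed intensity values, scaled to a median of 25 per array (method not given in the sources used here). Spot intensities were corrected by normexp against 2736 blank spots (limma 3.58.1 in R 4.3.3, nec, offset 50), log2 transformed and quantile normalised. Between 0 and 9 marked spots per array were left out. The blank spots were preferred because an earlier account of these data reports that the local background column follows the spot's own signal. That report was not tested here. Probes above the blank mean by 2 SD on at least 3 arrays were fitted with lmFit and eBayes (two-sided, Benjamini-Hochberg over 20542 probes). The fit was checked on simulated data with independent noise. These held no shared deviation of same-numbered arrays, so the check does not cover it. Symbols came from the platform annotation, updated through RefSeq (GRCm38.p6; 20556 probes matched, 2783 unnamed here).

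Members and lists were chosen with earlier results of these data known. Named were all member probes, Chd7, up to 2 genes per list and direction with the smallest p, and the 5 probes most and least like Gdnf. The labels do not say whether replicates are separate cultures, so p-values measure the spread between samples, which may be technical; the number of arrays limits the precision. Arrays with the same replicate number deviated together from their group means (r of 0.498, 0.425 and 0.436). The labels state no shared litter or day. The main fit had no replicate block, so its SEs, intervals and p-values are unpaired. Same-numbered arrays were treated as pairs only in the pair values and in the fit with the replicate block. A fit with the replicate block, other corrections and scalings, filters and leaving out each array were alternatives.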

Additional observations from a re-analysis of the deposited data

How the results depend on the processing

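The Gdnf difference kept its direction in all 15 alternatives; it was -1.26 with the authors' processed values, -0.63 with the local background column and -0.64 with that column without Cre replicate 2, a setting chosen after seeing the data, and it lay between -1.11 and -0.96 with 1 array left out. With the replicate block the Gdnf difference was -1.05. The block changed no call at the adjusted threshold and left 3 family probes at an unadjusted p under 0.05. At that unadjusted level the counts rose to 1918 probes and 8 listed genes. The count of family probes at an unadjusted p under 0.05 was 3, 2 with the blank mean subtracted, median scaling or the authors' values (Gfra1 lost each time), and 1 with the local background column, with or without Cre replicate 2; it was 3 with each array left out. No probe and no listed gene passed the adjusted threshold in any alternative. Probes at an unadjusted p under 0.05 numbered 1154, against 613 with median scaling, 1875 with the authors' values, 1918 with the replicate block and 2441 with the local background column without Cre replicate 2. The listed genes at that level numbered 6, against 3 with median scaling, 12 with that last setting, and between 1 (without Cre replicate 2) and 8 with 1 array left out, with 3 without control replicate 1 and 3 without control replicate 3. The brighter Chd7 probe ranged from -2.71 (authors' values) to -0.52 (local background column), and the dimmer one turned to 0.044 with that column and 0.056 with it without Cre replicate 2. The causes were not tested. Gfra3 and Ret lay near the blank spots, which limits how well their differences can be measured. The difference of the dim Gfra2 probe changed in size between settings and stayed above 0. Those of the dim Artn, Pspn and Gfra4 probes changed in sign as well as size. With other processing their extremes were -0.19 and 0.26, -0.11 and 0.21, and -0.36 and 0.23. The brighter Nrtn, Gfra1 and Ncam1 changed sign too, with extremes of -0.14 and 0.35, -0.06 and 0.30, and -0.60 and 0.25. Gfra3 could not be fitted on the authors' values, which are empty on all Cre arrays.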
